A study of Mus musculus with 19 samples.

Results

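The genes described here encode ADAMTS proteases, which are secreted enzymes that cut the extracellular matrix, together with an ADAMTS-like protein and the proteins that process procollagen. The set was chosen by name, with earlier results of these data known. It holds 10 genes: Adamts1, Adamts2, Adamts4, Adamts5, Adamts9, Adamts10, Adamtsl2, Bmp1, Pcolce and Pcolce2. Probe sets naming exactly 1 symbol were found for 9 of the 10 genes, 19 probe sets in all, out of 18194 genes on the arrays with such a probe set. Adamts2 is not analysed here. The main probe set of a gene is its brightest by mean log2 signal across all 19 arrays. All 9 genes had a main probe set above a log2 signal of 4 in at least 5 arrays, the filter that left 10733 genes to test. Expression was measured in the left ventricle of male C57BL/6 mice, operated at 7 weeks of age and killed 4 weeks later. The groups were 7 mice with aorta banding and heart failure, 7 mice with aorta banding and no heart failure, and 5 sham-operated mice, with 1 array per mouse. Banding narrows the aorta, so that the left ventricle ejects against a raised pressure. The labels do not give the criterion for heart failure.

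Fibrillar collagens are secreted as procollagens with a propeptide at each end, and fibrils form once these are cut off. Bmp1, an astacin metalloproteinase, removes the C-terminal propeptide; Pcolce and Pcolce2 bind procollagen and speed up that cut, while Adamts2 removes the N-terminal one. Adamts1, Adamts4, Adamts5 and Adamts9 cleave large chondroitin sulphate proteoglycans such as versican, whereas Adamts10 and Adamtsl2 bind fibrillin microfibrils, and Adamtsl2 has no protease domain.

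Promoters were available for 6 of the 10 genes, from RefSeq on GRCm38.p6, each running from 250 bases before to 50 bases after the gene's start. Those of Adamtsl2 (chr2:27079129-27079428, plus strand), Pcolce (chr5:137611355-137611654, minus strand) and Pcolce2 (chr9:95637378-95637677, plus strand) are shown because these 3 genes had the largest rises of the set with heart failure. They are written 5′ to 3′ in the direction of the gene, and capitals mark matches to the motifs searched.
Adamtsl2: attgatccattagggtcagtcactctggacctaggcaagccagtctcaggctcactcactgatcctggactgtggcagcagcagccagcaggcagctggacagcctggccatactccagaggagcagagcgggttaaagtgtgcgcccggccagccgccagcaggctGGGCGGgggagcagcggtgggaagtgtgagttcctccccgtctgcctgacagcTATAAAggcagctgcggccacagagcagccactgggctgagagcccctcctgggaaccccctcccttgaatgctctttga
Pcolce: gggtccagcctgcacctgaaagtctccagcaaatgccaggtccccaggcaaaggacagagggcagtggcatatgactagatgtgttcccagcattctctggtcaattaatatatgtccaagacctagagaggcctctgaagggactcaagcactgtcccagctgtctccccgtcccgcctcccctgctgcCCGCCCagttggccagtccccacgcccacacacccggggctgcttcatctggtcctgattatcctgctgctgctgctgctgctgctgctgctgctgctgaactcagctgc
Pcolce2: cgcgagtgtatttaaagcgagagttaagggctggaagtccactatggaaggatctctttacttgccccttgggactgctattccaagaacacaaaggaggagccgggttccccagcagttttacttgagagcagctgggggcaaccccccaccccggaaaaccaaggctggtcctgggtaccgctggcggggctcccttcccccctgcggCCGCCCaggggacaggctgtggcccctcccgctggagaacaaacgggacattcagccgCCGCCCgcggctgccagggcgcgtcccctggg
All motifs were searched on both strands. The letters GGGCGG stood for the GC box and the letters TATAAA for the TATA box. For the factor AP-1 the motif was TGANTCA (held by 7.81% of all promoters), and for the TEAD factors it was GGAATG (14.7%). The core of the CAGA box was searched as CAGACA (21%) and the RUNX motif as TGTGGT (16.8%). The GC box was found in all 3 promoters, as it was in 35.7% of the 32851 promoters of the same length. The other available promoters of the set, those of Adamts1, Adamts2 and Adamts9, held it too. In Adamtsl2 it began at base -83 and the TATA box, present in 13.6% of all promoters, at base -30, counted from the gene's start. The opposite strand of Pcolce held the GC box from base -60, and that of Pcolce2 from bases -40 and 19. The Adamts1 promoter also held both motifs, and Adamts1 passed the threshold in no comparison. No match overlapped another in the 3 promoters, and the other 4 motifs had no match there. GC content was 62.3%, 59.3% and 63.7% in the same order, beside a mean of 53.8% over all promoters. A match describes letters in this window and nothing about a factor.

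Across the series, the arrays had 44.5% to 45% of probe sets above the filter. By the 18S rRNA control the arrays fell into a low set, with all 7 mice with heart failure (5.64 to 7.62 on the log2 scale), mice 1 to 4 of the banded group without it (5.14 to 6.89) and sham mice 4 and 5, and a high set, with mice 5 to 7 of that group (10.99 to 11.76) and sham mice 1 to 3 (9.03 to 10.08). The hybridisation control BioC was 8.60 to 9.20 in banded mice 5 to 7 and 10.18 to 10.99 on the other arrays. The difference between 3' and 5' actin probe sets, a sign of RNA quality, was 0.66 to 0.91 in mice with heart failure, 0.67 to 0.90 in banded mice without it and 0.94 to 1.02 in sham mice. It therefore parted all banded mice from all sham mice and cannot be told apart from banding. The labels name no batch. They give each mouse an ID number, and gaps between these numbers were used here to divide the mice into 3 series, which the labels do not name. Each series holds mice of every group, and whether it marks a shared time or handling is not known. Nothing in the labels says how far the mice of a group were handled apart. The p-values set a group difference against the spread between these mice within the 3 groups. The main fit has no term for the array set or the series, so that spread holds them too.

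With heart failure, 5 of the 9 genes rose against sham and none fell: Adamtsl2 5.85-fold, Pcolce2 2.07-fold, Pcolce 2.02-fold, Bmp1 1.73-fold and Adamts10 1.52-fold. Over all 10733 genes 20.4% rose and 18.9% fell in that comparison. Without heart failure 2 of 9 rose against sham, Adamtsl2 3.24-fold and Pcolce2 1.45-fold, beside 10.8% of all genes that rose and 6.53% that fell. Between the banded groups 3 of 9 were higher with heart failure, Adamtsl2 1.8-fold, Pcolce 1.6-fold and Pcolce2 1.42-fold, beside 3.83% of all genes that were higher and 5.65% that were lower. The median log2 change of the 9 genes was 0.61, 0.33 and 0.51 in these comparisons, where that of all genes was 0.01, 0.02 and -0.01. The proteoglycan-cleaving Adamts1, Adamts4, Adamts5 and Adamts9 passed the threshold in none of the 3. Tests were made in 1 limma fit over all 19 arrays, with Benjamini-Hochberg adjustment over all genes and a threshold of 0.05. Limma called 0 of the 9 genes lower in any comparison, and none had a negative change with an unadjusted p under the threshold.

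**Figure D1:**
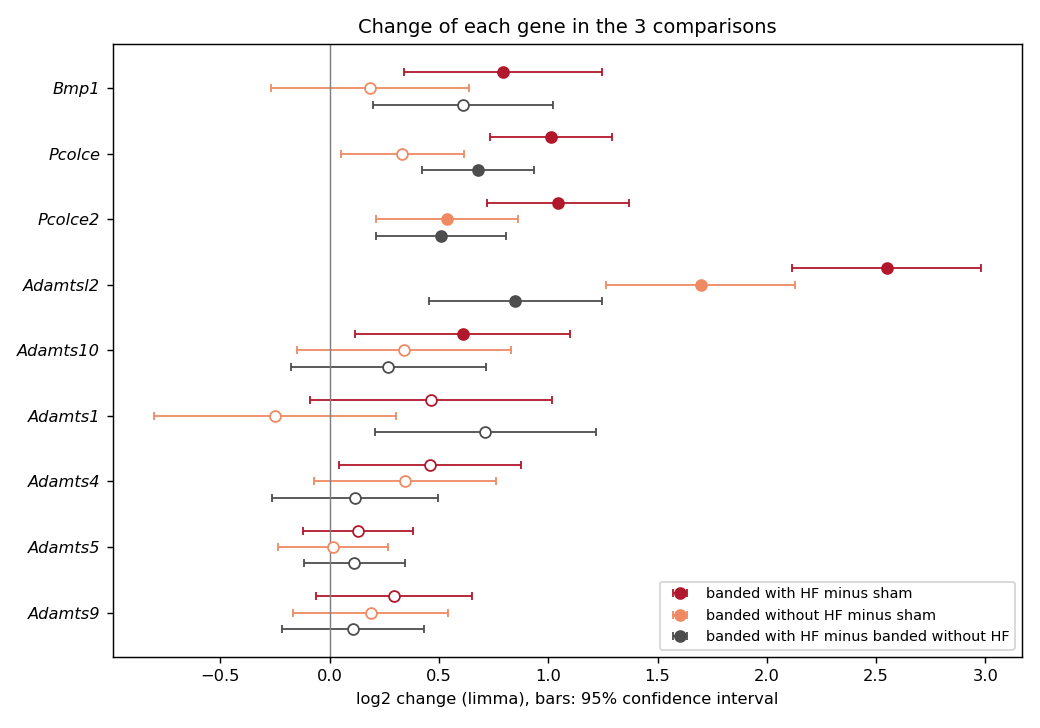
Log2 change of each of the 9 genes (horizontal axis) in the 3 comparisons; bars are 95% confidence intervals and filled points passed an adjusted p of 0.05. Adamtsl2 lies farthest to the right, at 2.55 with heart failure and 1.70 without it, and the intervals of Adamts5 include 0 throughout.

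Pcolce, the procollagen C-endopeptidase enhancer, had log2 signals of 12.00 at the lowest, 12.28 at the median and 12.53 at the highest in the 7 mice with heart failure. In the 7 banded mice without heart failure they were 11.18, 11.65 and 11.85, and in the sham mice 11.51, 11.17, 11.62, 10.97 and 11.11. Banded mice without heart failure and sham mice thus overlapped. On this main probe set every mouse with heart failure lay above every mouse of both other groups. Such a separation from sham on every array was found upward for 3 of the 9 genes and 8.5% of all genes, and from banded mice without heart failure for 1 of 9 and 0.839%. Pcolce averaged 12.29 ± 0.20 (SD, n = 7) with heart failure and 11.27 ± 0.28 (n = 5) in sham mice, a log2 change of 1.01 ± 0.13 (SE, limma adjusted p = 1.17e-05). Against banded mice without heart failure, which averaged 11.61 ± 0.24, the change was 0.68 ± 0.12 (limma adjusted p = 0.00372). Banded mice without heart failure differed from sham by 0.33 (95% confidence interval 0.05 to 0.61, limma adjusted p = 0.0937), which did not pass; without banded mouse 5 or without sham mouse 3 it passed (0.40 and 0.42, limma adjusted p = 0.036 and 0.0473), as did the mean of its probe sets (0.45, adjusted p = 0.0297).

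Pcolce2, the second enhancer, was nearly level in the mice with heart failure. Its log2 signal there was 10.51 at the lowest, 10.58 at the median and 10.76 at the highest. Banded mice without heart failure spread from 9.61 through a median of 9.90 to 10.60, and the sham mice had 9.31, 9.25, 9.53, 9.80 and 9.87. All mice with heart failure lay above all sham mice; banded mice without heart failure reached both groups, with mice 1, 3 and 4 at 10.29 to 10.60 and the other 4 at 9.61 to 9.90. The means were 10.60 ± 0.08, 10.09 ± 0.39 and 9.55 ± 0.28 (SD, n = 7, 7 and 5). The log2 change was 1.05 ± 0.16 (SE, limma adjusted p = 4e-05) with heart failure against sham and 0.54 ± 0.16 (adjusted p = 0.0231) without heart failure against sham. Between the banded groups it was 0.51 ± 0.14 (adjusted p = 0.0305). The second call was lost in 5 of 26 alternatives. With the actin difference as a covariate the change was 0.25 (limma adjusted p = 0.456), and in the low 18S set alone 0.48 (0.145). The other losses came with only the groups compared (limma adjusted p = 0.0723) and without sham mouse 1 or 2 (0.067 and 0.0744). The third was lost in 11 of 28 alternatives, 7 of them without any 1 of banded mice 2, 5, 6 and 7 without heart failure or 1, 2 and 4 with it (limma adjusted p from 0.0554 to 0.0749). Without banded mice 5 to 7, whose controls stood apart, the third change was 0.29 (limma adjusted p = 0.346). Low 18S arrays alone gave 0.29 and blocking on the array set 0.30 (limma adjusted p = 0.232 and 0.0878), and with no filter the call was also lost (0.0618).

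Bmp1, the proteinase whose cut these enhancers speed up, had log2 signals of 7.44, 7.92 and 8.25 (lowest, median, highest) with heart failure. In banded mice without heart failure they were 6.74, 7.29 and 7.79. The sham mice had 7.13, 6.18, 7.44, 7.36 and 7.35. Of the 7 mice with heart failure 6 lay above every sham mouse, and sham mouse 2 lay well below the other sham mice. Bmp1 averaged 7.89 ± 0.27 with heart failure, 7.28 ± 0.40 in banded mice without it and 7.09 ± 0.52 in sham mice (SD, n = 7, 7 and 5). It rose with heart failure against sham by 0.79 ± 0.22 (SE, limma adjusted p = 0.00702), and by 0.57 (limma adjusted p = 0.0237) without sham mouse 2. This call was lost with the 18S array set as a block (0.46, limma adjusted p = 0.0951) and with the actin difference as a covariate (0.69, adjusted p = 0.113). Without heart failure it differed from sham by 0.18 (95% confidence interval -0.27 to 0.64, limma adjusted p = 0.593), or by -0.04 without sham mouse 2. The banded groups differed by 0.61 (95% confidence interval 0.20 to 1.02, limma adjusted p = 0.0577); it passed in 6 of 28 alternatives. These were the fits without banded mouse 1 or 3 without heart failure or mouse 6 with it (limma adjusted p = 0.0404, 0.0341 and 0.0434), the mean of the probe sets (0.0403), only the groups compared (0.0361) and array quality weights (0.0162). Without banded mice 5 to 7 the difference was 0.34 (limma adjusted p = 0.471). Low 18S arrays alone also gave 0.34 (0.228), and blocking on the array set gave 0.37 (0.202).

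**Figure D2:**
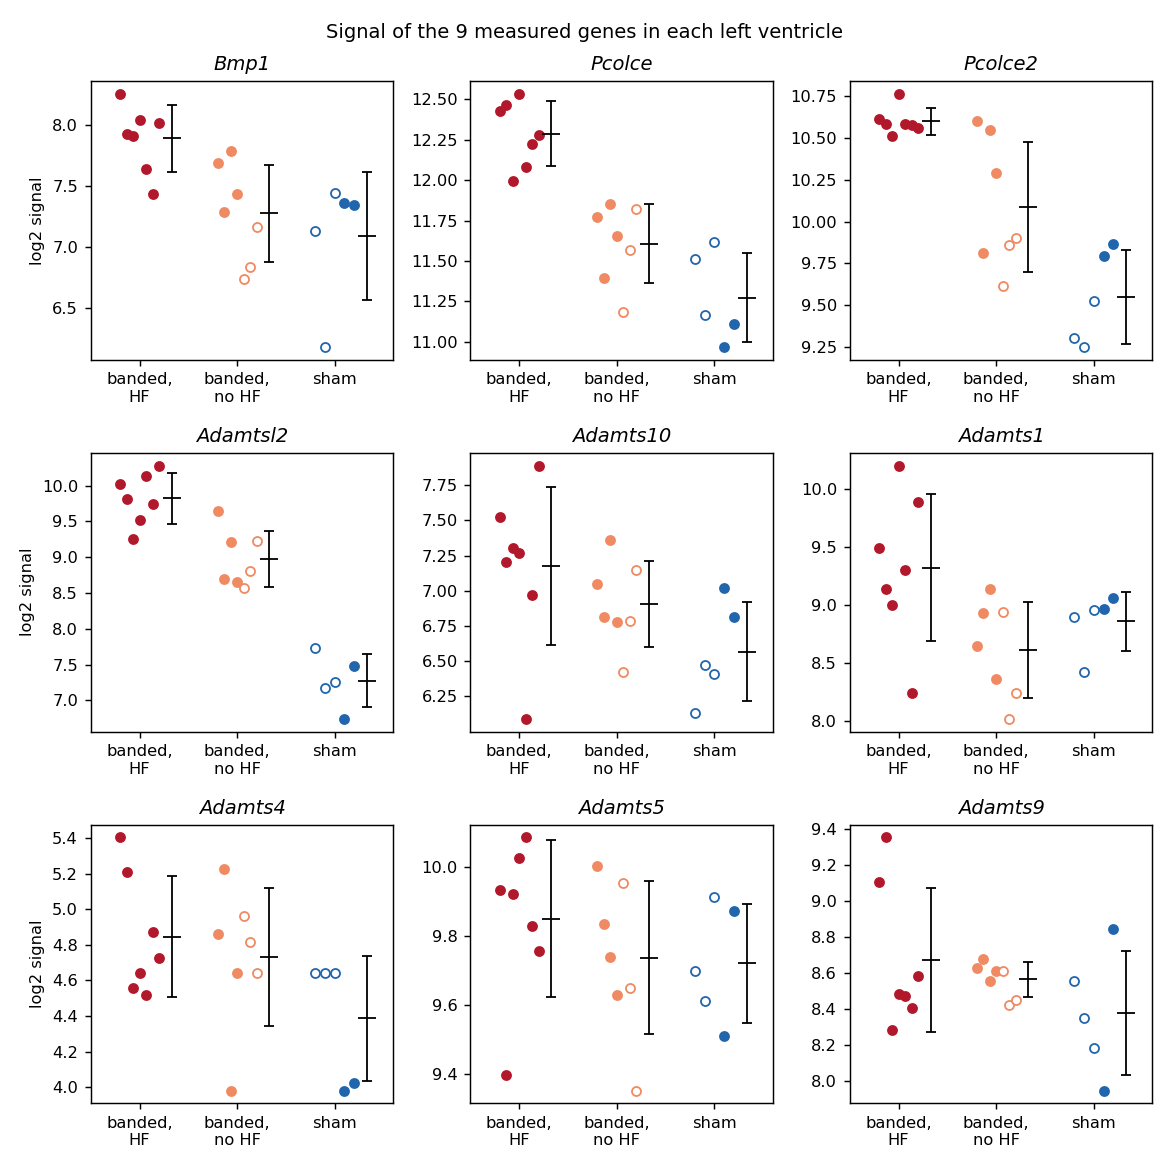
Log2 signal of the main probe set of each gene in every mouse (1 point per array), with the group mean and SD beside the points; open points are arrays of the high 18S set. In Adamtsl2 and Pcolce2 the 7 mice with heart failure lie above all sham mice, and in Adamts5 the ranges of the 3 groups overlap.

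Adamtsl2 changed most of the set. This secreted glycoprotein resembles the non-catalytic part of ADAMTS proteases and binds fibrillin and latent TGF-beta binding protein; in humans, mutations in its gene cause geleophysic dysplasia. Its log2 signal was 9.25, 9.81 and 10.28 (lowest, median, highest) with heart failure and 8.57, 8.80 and 9.64 in banded mice without it. Sham mice had 7.73, 7.17, 7.25, 6.74 and 7.48. Every banded mouse lay above every sham mouse, and 5 of the 7 mice with heart failure lay above every banded mouse without it. Adamtsl2 was the 1 gene of the 9 that stood above sham on every array without heart failure, as did 4.63% of all genes. The means were 9.82 ± 0.36, 8.97 ± 0.40 and 7.27 ± 0.37 (SD, n = 7, 7 and 5). The log2 change against sham was 2.55 ± 0.21 with heart failure (SE, limma adjusted p = 6.32e-08) and 1.70 ± 0.21 without it (adjusted p = 2.9e-05). By absolute change it ranked 44 and 38 among the 10733 genes in these comparisons. Heart failure against no heart failure gave 0.85 ± 0.19 (limma adjusted p = 0.00998), which was 0.77 without banded mice 5 to 7 and in the low 18S set alone (limma adjusted p = 0.101 and 0.11).

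Adamts10, a protease of the ADAMTS family that binds fibrillin-1, gave the smallest rise of the 5. It had log2 signals of 6.09, 7.27 and 7.89 (lowest, median, highest) with heart failure and 6.42, 6.82 and 7.36 without, and the sham mice had 6.13, 6.47, 6.41, 7.02 and 6.81. The groups overlapped throughout, and the lowest of all 19 arrays was mouse 5 with heart failure. The log2 change with heart failure against sham was 0.61 ± 0.23 (SE, limma adjusted p = 0.0461). It lost the call in 18 of 26 alternatives, 8 of them without a single mouse: mice 1, 2, 3, 4 and 7 with heart failure and sham mice 1, 2 and 3 (limma adjusted p from 0.0656 to 0.13). In the low 18S set alone the change was 0.26 (limma adjusted p = 0.612). Without heart failure it differed from sham by 0.34 (95% confidence interval -0.15 to 0.83, limma adjusted p = 0.341), and the banded groups differed by 0.27 (-0.18 to 0.72, limma adjusted p = 0.454).

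Adamts1, induced in many tissues by inflammatory signals, had an SD of 0.64 among mice with heart failure, 0.42 among banded mice without it and 0.25 among sham mice. It had log2 signals of 8.24, 9.31 and 10.20 (lowest, median, highest) with heart failure and 8.02, 8.65 and 9.14 in banded mice without it. The sham mice had 8.90, 8.42, 8.96, 8.97 and 9.06. Mouse 6 with heart failure was below every sham mouse and mice 4 and 7, at 10.20 and 9.89, were the highest of all. The log2 change with heart failure was 0.46 (95% confidence interval -0.09 to 1.02, limma adjusted p = 0.175) against sham. It was 0.71 (0.21 to 1.22, limma adjusted p = 0.0688) against banded mice without heart failure, and these differed from sham by -0.25 (-0.80 to 0.30, limma adjusted p = 0.551). Without mouse 6 with heart failure the first change was 0.64 and the second 0.89, and both passed (limma adjusted p = 0.0318 and 0.015); the second also passed without banded mouse 3 without heart failure and with array quality weights (limma adjusted p = 0.0495 and 0.0423).

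Adamts4, an aggrecanase that also cuts versican, lay close to the filter. Its main probe set had 4.52, 4.73 and 5.40 (lowest, median, highest) with heart failure and 3.98, 4.82 and 5.23 without. Sham mice had 4.64, 4.64, 4.64, 3.98 and 4.03. The same value to 2 decimals, 4.64, was deposited for 6 of the 19 arrays, and no fold is given because arrays of 2 groups lay under 4. With heart failure the log2 difference from sham was 0.46 (95% confidence interval 0.04 to 0.88, limma adjusted p = 0.0732). It passed with the 18S array set as a block, in the low 18S set alone, with the animal series as a block and with the actin difference as a covariate, at 0.59 to 0.84 (limma adjusted p = 0.0259, 0.0468, 0.00991 and 0.0361). Without heart failure it was 0.35 (-0.07 to 0.76, limma adjusted p = 0.246), and between the banded groups 0.11 (-0.27 to 0.49, limma adjusted p = 0.742).

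Adamts5, the other main aggrecanase, was bright and nearly level. Its log2 signals were 9.40, 9.92 and 10.08 (lowest, median, highest) with heart failure, 9.35, 9.74 and 10 without it, and 9.70, 9.61, 9.91, 9.51 and 9.87 in sham mice. The 3 ranges overlapped. The log2 change was 0.13 (95% confidence interval -0.12 to 0.38) with heart failure and 0.02 (-0.24 to 0.27) without it against sham, and 0.11 (-0.12 to 0.34) between the banded groups (limma adjusted p = 0.418, 0.945 and 0.554). No interval of this main probe set reached beyond 0.38. Those of the further Adamts5 probe sets past the filter were wider. The one with a mean signal of 8.84 gave -0.55 to 0.16 with heart failure against sham. The one with a mean of 6.60 gave -0.29 to 0.56 without heart failure against sham.

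Adamts9, a versican-cleaving protease found in the endothelium and other tissues, had 8.28, 8.48 and 9.35 (lowest, median, highest) with heart failure and 8.42, 8.61 and 8.68 without. Sham mice had 8.55, 8.35, 8.18, 7.94 and 8.85. Mice 1 and 2 with heart failure, at 9.11 and 9.35, were above all others, and the other 5 lay within the sham range. The log2 change against sham was 0.29 (95% confidence interval -0.06 to 0.65) with heart failure and 0.19 (-0.17 to 0.54) without it, and 0.11 (-0.22 to 0.43) between the banded groups (limma adjusted p = 0.178, 0.475 and 0.715).

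Beside the main ones, 5 more probe sets of these genes passed the filter and 5 did not. The second Bmp1 probe set rose by 1.24 ± 0.27 (SE) with heart failure against sham, with all 7 mice (6.97 to 7.50) above all sham mice (5.34 to 6.75), and it passed when every probe set was tested on its own (limma adjusted p = 0.00151). The second Pcolce probe set rose by 1.10 ± 0.17 with heart failure and by 0.58 ± 0.17 without it (limma adjusted p = 6.7e-05 and 0.0271), so for banded mice without heart failure the 2 Pcolce probe sets fell on opposite sides of the threshold with the same sign. Between the banded groups the second Pcolce probe set differed by 0.52 ± 0.15 (limma adjusted p = 0.0487), and these groups overlapped. Of the 7 mice with heart failure, 4 lay above every banded mouse without it. The 2 further Adamts5 probe sets changed by -0.20 and 0.01 with heart failure, and none of the 3 passed in any comparison. The dimmer Adamts9 probe set spanned 3.22 to 6.38 over the arrays and differed by -0.47 ± 0.60 with heart failure, the opposite sign to the main probe set, with neither past the threshold. It lay at 5.58 to 6.38 on all 8 arrays of animal series 1, whatever the group, against 4.36 to 5.75 in series 2 and 3.22 to 6.15 in series 3. Of the probe sets that did not pass the filter, 4 lay under 4 on all arrays and 1, of Adamts4, was above 4 on 3 of 19 arrays.

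**Figure D3:**
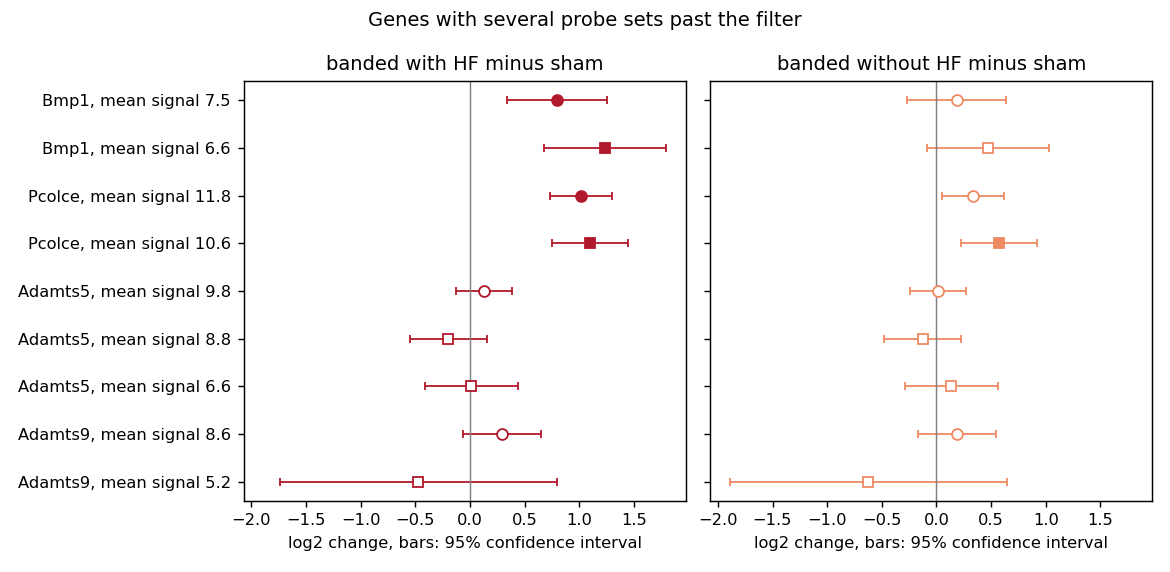
Log2 change against sham, with 95% confidence intervals, for each probe set past the filter of the 4 genes with several; circles are the main probe sets, squares the others, and filled symbols passed an adjusted p of 0.05. Both probe sets of Bmp1 and of Pcolce lie right of 0 with heart failure, and those of Adamts5 and Adamts9 lie on both sides of it.

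Inside groups, levels were also compared between the high and low 18S arrays. Among banded mice without heart failure, Pcolce2 was 9.61 to 9.90 on the 3 high arrays and 9.81 to 10.60 on the 4 low ones, and Bmp1 was 6.74 to 7.16 and 7.29 to 7.79. In sham mice Pcolce2 was 9.25 to 9.53 on the 3 high arrays and 9.80 to 9.87 on the 2 low ones. Bmp1 was 6.18 to 7.44 on the high sham arrays and 7.35 to 7.36 on the low ones, so the highest sham value lay on a high array. Adamts10 was 6.13 to 6.47 on the high sham arrays and 6.81 to 7.02 on the low ones, while in banded mice without heart failure it was 6.42 to 7.15 and 6.78 to 7.36. In a fit that blocked on the array set, the change of Adamts10 with heart failure against sham was 0.39 (limma adjusted p = 0.268). Adamtsl2, Pcolce and Pcolce2 kept that call in all 26 alternatives, with changes of 2.18 to 2.71, 0.94 to 1.25 and 0.75 to 1.17. Within the 3 series of ID numbers, which hold 2, 2 and 3 mice with heart failure and 3, 1 and 1 sham mice, Adamtsl2 was higher by 2.53, 2.64 and 2.57 with heart failure than in sham. Pcolce was higher by 1.02, 1.30 and 1.09 and Pcolce2 by 1.23, 0.84 and 0.70. Bmp1 was higher by 1.17, 0.62 and 0.35 and Adamts10 by 1.02, 0.27 and 0.17. For Pcolce2, Bmp1 and Adamts10 the value was highest in series 1 and lowest in series 3, and differences between series were not tested. In series 1 the mice with heart failure were on low 18S arrays and the sham mice on high ones. There the difference between these groups cannot be told apart from the array set. All arrays of series 2 and 3 were in the low set. Without heart failure, the main Pcolce probe set was 0.09 above sham in series 1, which holds all the high arrays. In series 2 and 3 it was 0.66 and 0.60 above sham. The second Pcolce probe set was 0.50, 0.50 and 0.67 above sham in series 1, 2 and 3.

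**Figure D4:**
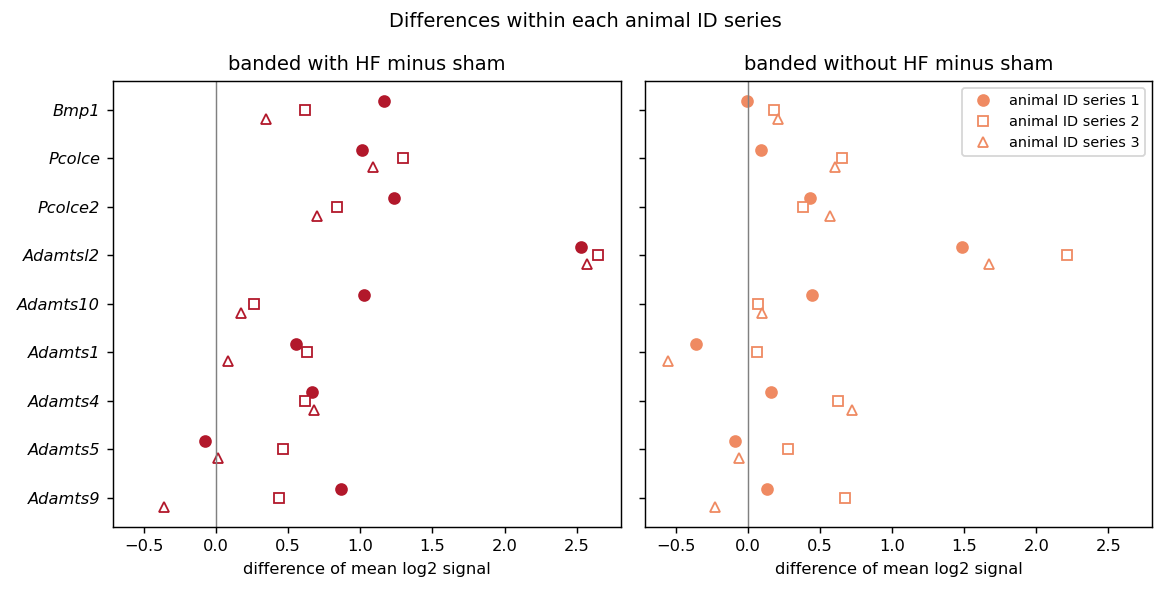
Difference of the group means of log2 signal from sham within each of the 3 series of mice, divided at gaps between their ID numbers, for banded mice with (left) and without (right) heart failure, with no error because series 2 and 3 hold 1 sham mouse each. With heart failure Adamtsl2 lies between 2.53 and 2.64, Pcolce2 between 0.70 and 1.23, Bmp1 between 0.35 and 1.17 and Adamts10 between 0.17 and 1.02.

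The fibrillar procollagens, on which these processing proteins act, were set beside the 9 genes as a list. Of 6 fibrillar procollagen genes tested, 5 rose with heart failure and 5 without it against sham, and 4 were higher in the first than in the second group (median log2 change 1.60, 0.86 and 0.78). Col1a1, which encodes the main chain of type I collagen, rose 5.81-fold and 3.18-fold, Col3a1 2.51-fold and 1.65-fold, and Col1a2 3.81-fold in the mice with heart failure. Among 7 tested genes of other proteins that BMP1 cuts, 5 and 4 rose and 3 were higher with than without heart failure (median 0.67, 0.56 and 0.36). Lox, which crosslinks collagen once its propeptide is cut off, rose 10.5-fold and 2.55-fold, and Bgn (biglycan) 3.65-fold and 2.15-fold. The BMP antagonist Chrd, another BMP1 substrate, differed by -0.17 and -0.32 (limma adjusted p = 0.45 and 0.204). None of the 5 other astacin proteinase genes, among them Tll1, passed the filter.

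Versican (Vcan), the proteoglycan cut by Adamts1, Adamts4, Adamts5 and Adamts9, was the 1 gene of 4 large chondroitin sulphate proteoglycans past the filter. It averaged 9.93 with heart failure, 9.22 in banded mice without it and 8.57 in sham mice, so it rose 2.58-fold against sham with heart failure (limma adjusted p = 0.000146). Without heart failure its log2 change was 0.65 (limma adjusted p = 0.0579), and between the banded groups 0.71 (adjusted p = 0.0398). Of 4 other ADAMTS proteases tested, none rose and 2 fell with heart failure, Adamts7 1.6-fold and Adamts3, an N-propeptidase, 1.44-fold. Limma called none of these 4 without heart failure, and Adamts7 was lower in the comparison of the banded groups. Of 3 other ADAMTS-like genes Adamtsl5 rose, 1.54-fold with and 1.59-fold without heart failure, and 0 differed between the banded groups. The microfibril genes rose in 5 of 7 cases with and 3 of 7 without heart failure, and 4 of 7 were higher with than without (median 0.93, 0.37 and 0.56). Ltbp2 rose 19.7-fold and 5.92-fold and Mfap5 3.99-fold and 1.84-fold. Among 7 genes for ADAMTS inhibitors, processing and clearance, 3 rose in each comparison with sham and 1 between the banded groups (median 0.35, 0.24 and 0.12). Timp3, the inhibitor of ADAMTS proteases, rose 1.78-fold with heart failure (limma adjusted p = 0.0481) and differed by 0.24 without it (adjusted p = 0.654). Lrp1, the receptor that takes up ADAMTS proteases from the matrix, rose 2.68-fold and 1.62-fold. Pcsk5, a proprotein convertase, had a log2 change of 1.35 with heart failure, with sham mouse 2 below the filter.

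**Figure D5:**
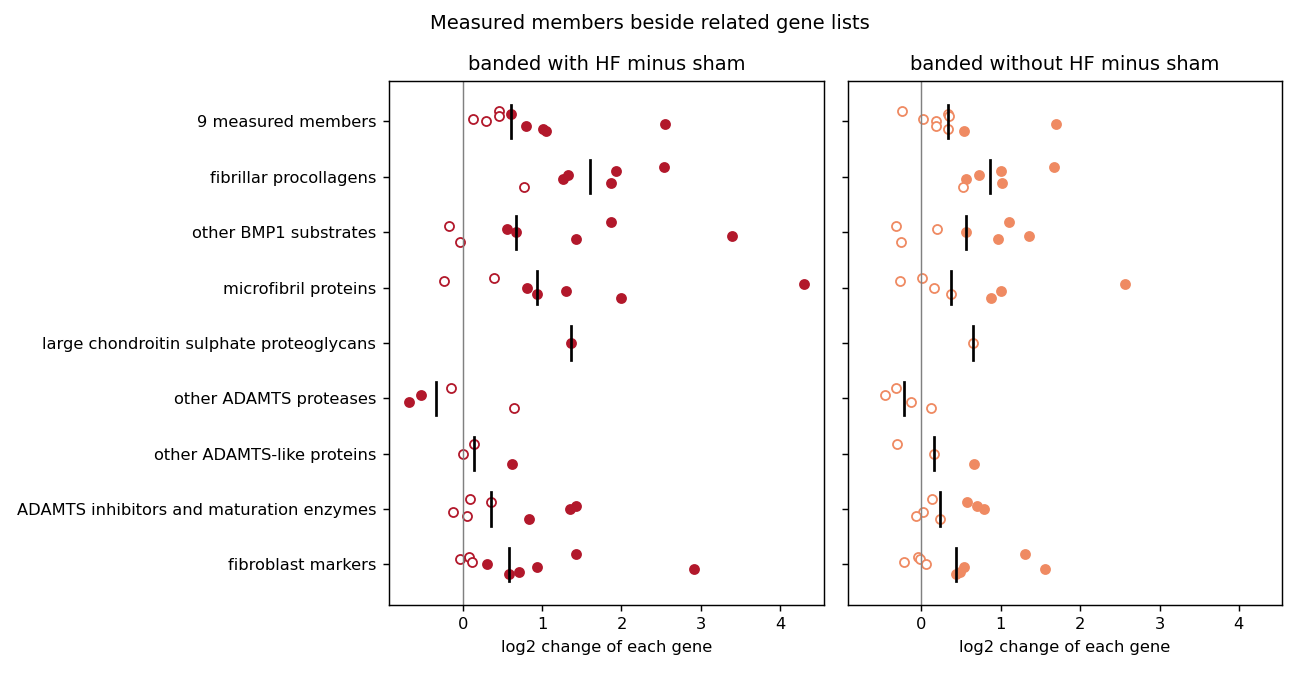
Log2 change against sham of each gene among the 9 measured genes, in 7 related lists and among the fibroblast markers (filled points passed an adjusted p of 0.05; black lines are medians), with heart failure on the left and without it on the right. The fibrillar procollagens have medians of 1.60 and 0.86, against 0.61 and 0.33 for the 9 measured genes.

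In a bulk sample, more or fewer cells of a type and more or less RNA per cell cannot be told apart. Fibroblast markers rose in 6 of 9 cases with and 5 of 9 without heart failure, and 2 of 9 were higher with than without (median 0.59, 0.44 and 0.22). Their summed signal on the log2 scale was 15.38 to 15.73 with heart failure, 15.14 to 15.50 without it and 15.06 to 15.37 in sham mice. Cardiomyocyte markers, all 8 past the filter, fell in 4 of 8 cases with heart failure and in 0 without, and 1 was lower between the banded groups (sums 18.66 to 18.77, 18.74 to 18.81 and 18.73 to 18.87). Endothelial markers rose in 3 and 1 of 9 and fell in 1 between the banded groups. Smooth muscle and pericyte markers rose in 3 and 3 of 9, with Kcnj8 lower in mice with heart failure against both other groups. Limma called none of 8 macrophage markers in any comparison, and of the 6 epicardial markers 1 passed the filter and was not called. Of 6 atrial markers tested, Nppa and Dkk3 rose and Stard10 fell with heart failure. Nppa rose without it, and Myl7 was lower between the banded groups. The median log2 change of the 6 was -1.44, 1.23 and -1.81 in the 3 comparisons. Against sham, Myl7, Sln and Myl4 changed by -3.69, -1.71 and -1.56 with heart failure (SE 1.64, 1.57 and 1.12), and none passed. Without heart failure they changed by 1.24, 2.11 and 1.07. Between the banded groups they differed by -4.93, -3.81 and -2.63. How much atrial tissue each sample held was not tested. No marker was tested for its part in the changes of the 9 genes.

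Over all 19 arrays, the genes whose level was most like that of Pcolce2 were Tmem43 (Pearson r = 0.98), Lrp1 (0.96) and Col1a2 (0.96). For Pcolce they were Col5a1 (0.97), Serpinf1 (0.95) and Rcn3 (0.95). For Adamtsl2 they were Nmrk2 (0.97), Lman1l (0.96) and P3h2 (0.96), and for Bmp1 Ttc8, Parva and Gpx7 (each 0.89). The most similar genes reached 0.89 for Adamts10 (Neurl1b), 0.84 for Adamts4 (Plekhg1), 0.79 for Adamts9 (Irak2), 0.78 for Adamts1 (Anln) and 0.69 for Adamts5 (Prim2). These are descriptions over arrays that share the group differences and the array sets. Taking off the group means leaves differences between the array sets in place. It gave 0.94 for Pcolce2 with Tmem43, 0.88 for Pcolce with Col5a1 and 0.80 for Adamtsl2 with Nmrk2. These partners had been picked as the most similar on the same arrays. Adamtsl2 gave 0.57 with Lman1l and 0.56 with P3h2. Among the 9 genes themselves the 36 pairs ran from -0.14 (Adamts5 and Adamts10) to 0.85 (Adamtsl2 and Pcolce). With group means taken off the closest pair was Bmp1 and Pcolce2 (0.73). Both genes averaged lower on high than on low arrays. In banded mice without heart failure Bmp1 averaged 6.91 and 7.55, and Pcolce2 9.79 and 10.31. In sham mice these means were 6.92 and 7.35, and 9.36 and 9.83. How far the array sets carry the value of 0.73 was not tested.

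Within the banded groups, the level of the genes was set against an index of hypertrophy that the labels call an ending weight. In all 19 mice it equals the labels' left ventricular weight divided by tibia length. It was 8.09 to 9.75 with heart failure and 6.42 to 7.59 without it. Of 18 correlations (9 genes, each group of 7 mice on its own), 0 passed the threshold after adjustment and 1 had an unadjusted exact permutation p under it. That was Pcolce2 in banded mice without heart failure (Pearson r = 0.80, exact permutation p = 0.0325, adjusted p = 0.55; Spearman rho = 0.75, exact permutation p = 0.0663, adjusted p = 0.667). Leaving out the 2 mice farthest from the median index gave r = 0.63. In mice with heart failure the same gene, with an SD of only 0.08 there, had r = -0.60 (exact permutation p = 0.122), or -0.90 without the 2 farthest mice. Over all 18 correlations without the 2 farthest mice, the smallest exact permutation p was 0.05 and the smallest adjusted p 0.6. Leaving these mice out also moved Adamts5 in banded mice without heart failure from r = 0.05 to 0.98.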

How the data were processed

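Left ventricular RNA of 19 mice (7 banded with and 7 banded without heart failure, and 5 sham) was hybridised to Affymetrix arrays, as biotinylated cRNA from 3 ug of total RNA, 1 array per mouse, per the labels. The deposited values are log2 signals from GCRMA, which the submitters' processing notes name without a version. GCRMA removes background, normalises the arrays together and sums up probes, which pulls dim signals to a floor and compresses their changes. The values run from 2.19 to 16.77; arrays have no depth, so precision rests on how many there are.

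Gene symbols came from the platform's GEO annotation (34958 of 45101 had 1 symbol, 932 several, and 9211 are not listed there; gene IDs of 34754 were found in the RefSeq table and 0 symbols changed). Probe sets above a log2 of 4 in at least 5 arrays were kept, and the one with the highest mean stood for a gene, which left 10733 genes. limma 3.58.1 (R 4.3.3; all 19 arrays in 1 model with the group term alone, moderated by eBayes) gave the tests, with Benjamini-Hochberg adjustment over all genes; it was tested on simulated data. Correlations with the weight index were tested by exact permutation, two-sided, in scipy 1.17.1, and adjusted over 18. Figures were drawn with matplotlib 3.10.9.

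Every gene of the set is named; a fold is given only where all arrays of both groups lay above 4. Of each related list the text names the 2 genes with the largest change past the threshold with heart failure, always Col1a1, Col3a1, Vcan and Timp3, and others chosen after their values were seen. The 3 genes most like each member were found by Pearson r over 19 arrays. The genes, the 8 related lists and the 7 marker lists were chosen with earlier results of these data known. Alternatives changed the filter, the choice of probe set, the normalisation, the array set, the series of mice (divided here at gaps between the labels' ID numbers), an RNA quality covariate, the groups in the fit, the estimate of spread, and left out each mouse; leaving out banded mice 5 to 7 was added after the data were seen.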

Additional observations from a re-analysis of the deposited data

Results flagged for a closer look

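In 42 groups checked (14 probe sets past the filter in 3 groups), 3 held a mouse far from the others of its group, and chance alone gives about 1 in 20. Sham mouse 2 was low for Bmp1, at 6.18 where the nearest sham mouse had 7.13, and for Adamts1, at 8.42 where the nearest had 8.90. Mouse 4 with heart failure was high for Pcolce2, at 10.76 where the nearest had 10.61.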

How the results depend on the processing

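Against sham with heart failure, 4 to 6 of the 9 genes rose over all 26 alternatives and over those without 1 mouse. Without heart failure the count was 1 in the low 18S set alone, with the actin covariate and with only the groups compared, and 1 to 3 without 1 mouse. Between the banded groups it was 1 in the low 18S set alone, 1 without banded mice 5 to 7 (chosen after seeing the data), 5 with array quality weights and 2 to 5 without 1 mouse. None of the 9 genes was called lower under any alternative. Signs turned only for changes that passed in no setting. With the mean of a gene's probe sets, Adamts5 gave -0.019 with heart failure against sham and -0.028 between the banded groups, and Adamts9 -0.090 with and -0.22 without heart failure against sham. Adamts5 gave -0.024 with heart failure under the actin covariate. Without heart failure it gave -0.012 on quantile normalising again, -0.032 with equal medians, -0.0062 with the animal series block, -0.14 with the actin covariate, -0.021 with array weights and -0.037 to 0.080 without 1 mouse. Without 1 mouse, Bmp1 without heart failure ran from -0.043 to 0.27, and between the banded groups Adamts4 ran from -0.011 to 0.20 and Adamts9 from -0.0082 to 0.17. The causes were not tested. No scaling moved the median change of all genes by over 0.1. Genes called over the whole table with heart failure against sham were 4220 of 10733 (2193 higher, 2027 lower), 2670 in the low set and 2705 with the actin covariate. With every probe set tested on its own, 7462 of 20497 were called, which counts probe sets and not genes. Quantile normalising gave 1793 higher and 2587 lower, and equal medians 1689 and 2762. Without heart failure the genes called were 1865 (1164 higher, 701 lower), 343 in the low set, 1199 with the actin covariate and 1185 without sham mouse 2. Of the 20497 probe sets, 2901 were called there. The 2 scalings gave 902 higher and 926 lower genes, and 862 and 1050. Between the banded groups the genes called were 1017, 149 in the low set, 1914 with array weights and 110 without banded mice 5 to 7. They were 508 and 672 without banded mouse 5 or 6, and 599 without mouse 2 with heart failure. No correlation with the weight index passed after adjustment, without the 2 farthest mice or with the lung index. No paired analysis was possible because each mouse gave 1 array and the labels pair no mice across groups. Dim probe sets near the filter, as for Adamts4, limit what can be resolved.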
